A study of Mus musculus with 12 samples.

Results

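The genes described here encode 9 apolipoproteins, the protein coat of circulating lipid particles, and Mttp, the microsomal transfer protein that loads lipid onto one of them. They are Apoa1, Apoa2, Apoa4, Apoa5, Apob, Apoc1, Apoc2, Apoc3, Apoe and Mttp, 10 of the 24983 genes in the count table. They were chosen by name, with earlier results of these data known, and matched through their Ensembl identifiers. Liver RNA from 12 C57BL/6J mice was sequenced, with 3 animals in each of 4 groups. Feeding lasted 24 weeks in all groups. Chow mice ate standard diet, and the other 3 groups a diet high in saturated and trans fat, fructose and cholesterol with 40% of its calories from fat, which is used to induce non-alcoholic steatohepatitis (NASH), a fatty liver with inflammation. These mice carried an osmotic minipump under the skin that delivered polyethylene glycol (PEG) as vehicle, oleic acid (OA) in PEG, or nitro-oleic acid (OA-NO2), which is oleic acid bearing a nitro group, in PEG. Both fatty acids were infused at 5 mg/kg/day. The titles of the chow mice mention no pump, while the design text can be read as pumps in all mice. Unless they carried one, an effect of the diet and one of the pump with PEG cannot be told apart in any comparison with chow. Neither age, sex nor the length of infusion is given in the sources used here. The labels give each mouse its own ear tag, so replicates were separate animals.

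The liver secretes triglyceride in very low density lipoproteins (VLDL), each built on 1 molecule of apolipoprotein B, to which Mttp transfers lipid in the endoplasmic reticulum. Apoa1 and Apoa2 are the main proteins of high density lipoprotein (HDL). Apoe directs remnant particles to hepatic receptors, Apoc2 activates lipoprotein lipase, Apoc3 and Apoc1 slow clearance, and Apoa5 promotes it. In mice, unlike humans, the liver also edits the Apob transcript to yield the short protein form, and Apoa4 is made in liver as well as gut.

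Of the 10 genes, 7 lie in 2 clusters. On GRCm38 (GENCODE M21), the chromosome 9 cluster spans 43.3 kb and holds Apoa1 (chr9:46228580-46230466, plus strand), Apoc3 (chr9:46232933-46235636, minus), Apoa4 (chr9:46240696-46243459, plus) and Apoa5 (chr9:46268633-46271919, plus). The chromosome 7 cluster spans 27.6 kb on the minus strand and holds Apoc2 (chr7:19671579-19677941), Apoc1 (chr7:19689481-19692660) and Apoe (chr7:19696109-19699188). Apob lies at chr12:7977648-8016835 (plus), Apoa2 at chr1:171225054-171226379 (plus) and Mttp at chr3:138089854-138144968 (minus). All 10 are annotated as protein coding, and the values below are counts per gene.

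The sequences just upstream of 4 of these genes are shown because the genes behaved differently in the comparisons with chow: Apoa5 was lower, its neighbour Apoa4 was not, Apob was lower without passing the test, and Apoe hardly moved. Each ends at the base before the first annotated start, is given 5′ to 3′ on the gene's own strand, and comes from RefSeq on GRCm38.p6. Capitals mark matches to 3 motifs searched on both strands, none of which overlap. The first, CAAAGNNCA, is the core of an HNF4-type site, bound by a nuclear receptor of hepatocytes. The E-box motif was CACGTG, a site type bound by basic helix-loop-helix factors. The TATA box motif was TATAAA, which marks a fixed start in some promoters.
Apoa5, chr9:46268358-46268607, plus strand: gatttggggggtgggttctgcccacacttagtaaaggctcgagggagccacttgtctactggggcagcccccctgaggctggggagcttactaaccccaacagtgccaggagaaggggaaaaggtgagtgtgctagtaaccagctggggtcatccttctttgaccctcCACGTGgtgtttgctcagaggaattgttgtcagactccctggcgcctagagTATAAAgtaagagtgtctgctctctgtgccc
Apoa4, chr9:46240594-46240695, plus strand: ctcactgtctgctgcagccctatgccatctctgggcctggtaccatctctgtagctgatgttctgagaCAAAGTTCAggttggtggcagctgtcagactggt
Apob, chr12:7977427-7977647, plus strand: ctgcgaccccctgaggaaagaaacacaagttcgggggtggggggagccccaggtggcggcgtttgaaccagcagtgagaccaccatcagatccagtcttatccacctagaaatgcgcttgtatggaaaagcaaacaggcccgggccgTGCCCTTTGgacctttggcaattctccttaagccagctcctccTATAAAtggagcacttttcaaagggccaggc
Apoe, chr7:19699189-19699438, minus strand: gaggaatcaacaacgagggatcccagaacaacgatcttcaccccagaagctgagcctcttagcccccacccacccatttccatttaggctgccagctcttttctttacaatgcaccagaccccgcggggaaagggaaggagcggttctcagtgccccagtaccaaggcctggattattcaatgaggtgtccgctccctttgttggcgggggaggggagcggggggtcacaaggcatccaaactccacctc
In RefSeq's 32851 windows of 300 bases around gene starts, 6.36% held the HNF4-type core, 7.15% the E-box and 13.6% the TATA box. The printed stretches lie upstream only and hold 250 bases for Apoa5 and Apoe, 221 for Apob and 102 for Apoa4. They are therefore not like for like with those windows or with each other. The Apoa4 and Apob stretches end at the earlier GENCODE start, so the bases from there to the RefSeq starts (46240844 and 7977677) are not shown. Upstream of Apoa5 the E-box began 82 bases and the TATA box 31 bases before the RefSeq start. Apoa4 had the core in the sense orientation, 182 bases before its RefSeq start. Apob had the core in the reverse orientation 103 bases before, and a TATA box 60 bases before. The Apoe stretch held none of the 3. A window at another RefSeq start of Apoe, not printed here, held overlapping TATA box matches beginning 100 and 96 bases before that start. A match describes letters, not a bound site. Promoter entries were found for 8 of the 10 genes, Apoc1 and Apoc3 having none, and the entry for Mttp lies at the start of its longest isoform.

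The libraries held 8462590 to 20613777 counts, the smallest being chow replicate 1. Levels are given as CPM, counts scaled to a common library total, after scaling by edgeR's TMM method, unless another scale is named. Scaling by library size alone moved the median of all genes by 0.51 on the log2 scale for vehicle against chow, whereas under TMM that median was -0.01. Alb, which encodes serum albumin and marks hepatocytes, stood at 96662 to 123274 CPM in chow and 35376 to 46729 in vehicle. The 11 measured hepatocyte markers summed to 139609 to 169481 CPM in chow, 57839 to 75099 in vehicle, 70083 to 113782 in OA and 83694 to 121152 in OA-NO2, most of it Alb. With vehicle 6 of the 11 fell and 5 were not called, and 10 of the 11 had a negative log2 change. The exception was Hpx, which encodes hemopexin, at 3685 to 5649 CPM in chow and a higher 5733 to 6453 in vehicle (log2 change 0.33, adjusted p = 0.316). The 12 macrophage markers summed to 296 to 607, 929 to 1256, 811 to 1492 and 696 to 749 CPM in the same order. Stellate cell and fibroblast markers summed to 322 to 398 CPM in chow and 595 to 1039 in vehicle, where 6 of 8 rose, and cholangiocyte markers to 26.7 to 43.4 and 72.3 to 490.4, where 5 of 6 rose. In bulk liver, fewer cells of a type and less RNA per cell cannot be told apart. The part of these shifts in the results below was not tested.

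A transcript-length gradient also differed between libraries. The median of 1473 genes with at least 8000 exon bases minus that of 272 genes with under 1000 was 0.53 on the log2 scale in OA-NO2 replicate 1 and -0.43 in OA-NO2 replicate 2. It lay between -0.29 and 0.26 in the other 10 libraries. The part of this gradient in the values of Apob, which has 13934 exon bases, and of Apoa2, which has 537, was not tested.

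Per kilobase of exon, so that genes can be ranked, Apoa2 stood highest in chow at 15958 ± 2265 CPM per kb (SD, n = 3). Apoe (9956 ± 2098) and Apoa1 (9474 ± 2765) followed, and Apoe and Apoa1 did not differ beyond their spread. Apoc1 came next at 5548 ± 931, then Apoc3 at 1438 ± 369 and Apob at 801 ± 170.0. Apoa5 stood at 430 ± 121, Apoa4 at 261 ± 96.2 and Mttp at 61.9 ± 3.89. Together the 10 genes took 4.82% ± 0.435 (SD, n = 3) of all counts in chow, 5.32% ± 0.477 in vehicle, 5.18% ± 0.547 in OA and 5.68% ± 0.671 in OA-NO2. These shares overlap between groups. They are set against total counts, of which the mitochondrial genes took 10.7% to 14.5% in chow and 6.63% to 14.2% in the other libraries.

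**Figure D1:**
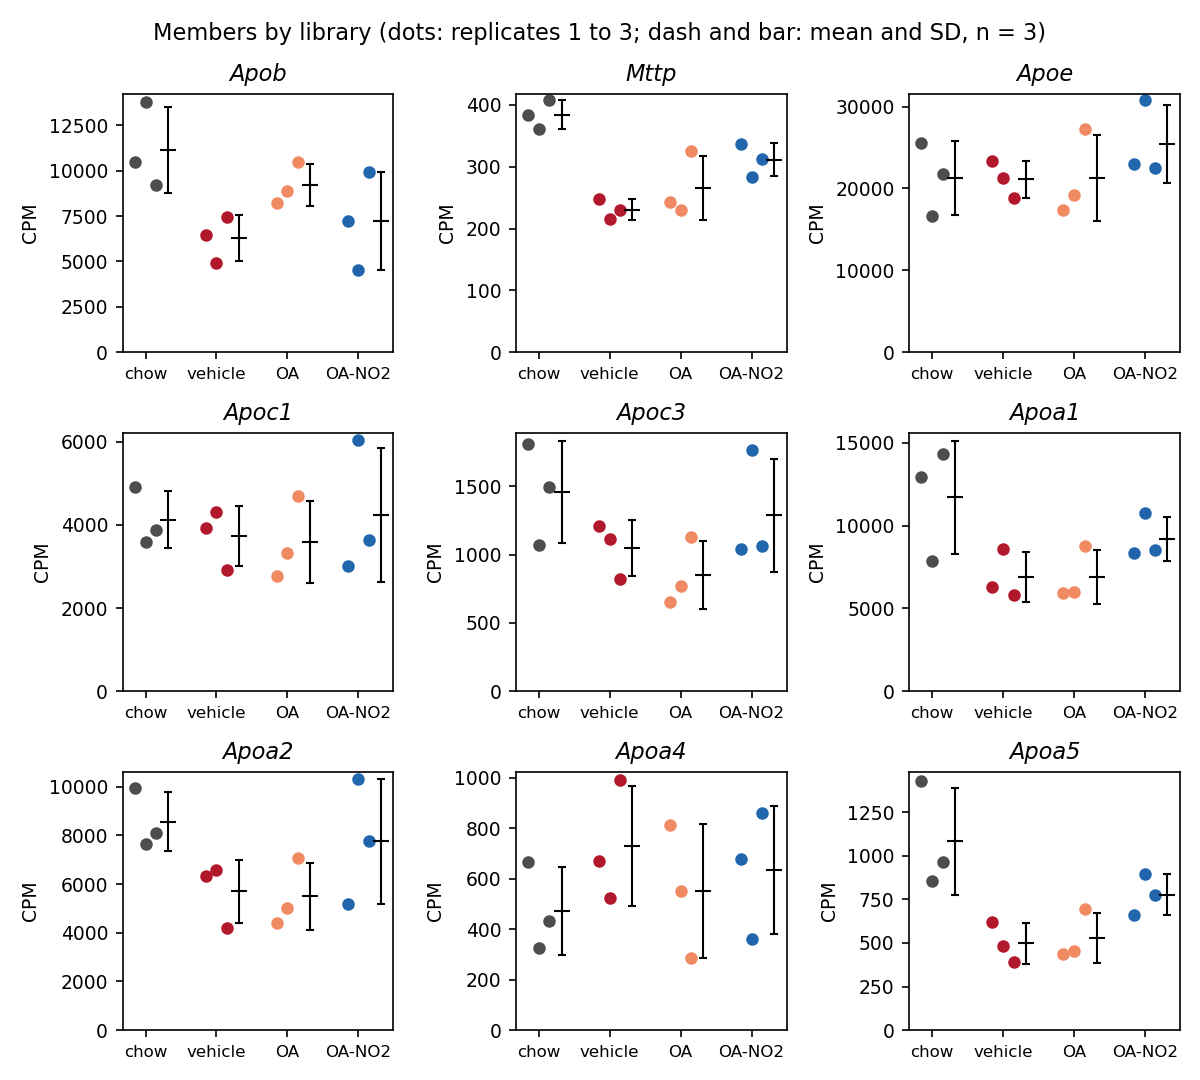
Level in CPM (vertical axes, each from 0) of the 9 tested genes in the 12 livers by group, with 1 point per mouse and the mean ± SD (n = 3) beside each group. Mttp in vehicle (215 to 248 CPM) and Apoa5 in vehicle (392 to 621 CPM) sit below all chow livers, while Apoe overlaps between all groups.

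With vehicle, Apoa5 and Mttp fell against chow, and Apob, Apoa1 and Apoa2 stood lower on average without passing the test. Apoe and Apoc1 had log2 changes of -0.01 and -0.15, which turn positive by library size alone, and Apoa4 averaged higher without passing it. Of the 9 members with enough counts to test, 2 were called lower at an adjusted p under 0.05, beside 8.16% of all 14469 genes called lower. DESeq2 called 4, adding Apoa1 and Apob, and leaving out 1 liver gave 1 to 3. Over all genes DESeq2 called 3237 and the fits without 1 liver 1200 to 2276, against 2786 in the main fit. By library size alone 3 members were called, Apoa5 lower but Apoa4 and Apoe higher, beside 5758 of all genes, 5510 of them higher. In 4 members the vehicle and chow values did not overlap, beside 39.4% of all genes. The median log2 change of the 9 was -0.59, against -0.01 over all genes tested and -0.81 over the 11 hepatocyte markers.

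Apob, the structural protein of VLDL, was measured at 10508, 13796 and 9197 CPM in chow replicates 1 to 3. Vehicle livers held 6485, 4917 and 7438, all below chow. The log2 change was -0.83 (95% interval -1.45 to -0.22), with an adjusted p of 0.0578 from edgeR's quasi-likelihood test, which missed the threshold. OA livers held 8221, 8910 and 10493 CPM, overlapping chow but all above vehicle. Their log2 change was -0.28 from chow (adjusted p = 0.572) and 0.55 from vehicle (interval -0.06 to 1.16, adjusted p = 0.975). OA-NO2 livers ran from 4540 through 7232 to 9906 CPM, the widest spread of the 3 NASH-diet groups. These were replicates 2, 1 and 3 in that order, with length gradients of -0.43, 0.53 and -0.11. The part of the gradient in these values was not tested.

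Mttp, which is needed to assemble VLDL, was measured at 384, 360 and 409 CPM in chow. Vehicle livers held 248, 215 and 229, a narrow band below all chow values. Mttp fell by 0.74 on the log2 scale (SE 0.16, adjusted p = 0.00946), and stayed called without any 1 of the 6 livers (adjusted p 0.0175 to 0.0401). By library size alone its log2 change was -0.22 and the call was lost (adjusted p = 0.259). OA livers held 242, 230 and 325 CPM, again below chow but not called (log2 change -0.53, adjusted p = 0.0571). OA-NO2 livers held 337, 284 and 313 CPM, between chow and vehicle and overlapping neither. Against chow the log2 change in OA-NO2 was -0.30 (interval -0.65 to 0.04, adjusted p = 0.323), and it turned to 0.03 by library size alone.

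Apoa5, which enhances clearance of triglyceride-rich particles, was measured at 1431, 855 and 965 CPM in chow. Vehicle livers held 621, 480.0 and 392, all below chow. Apoa5 fell by 1.12 on the log2 scale (SE 0.26, interval -1.67 to -0.57, adjusted p = 0.0112). The call was lost narrowly without chow replicate 1 (adjusted p = 0.0509) or vehicle replicate 3 (0.0531), with log2 changes of -0.87 and -0.98. By library size alone it was still called (log2 change -0.59, adjusted p = 0.0373). OA livers held 439, 455 and 696 CPM, also all below chow, and Apoa5 fell by 1.03 there (adjusted p = 0.0255). That call was lost without chow replicate 1, OA replicate 1 or OA replicate 2 (adjusted p 0.116, 0.131 and 0.116), and when only the OA and chow groups entered the model (0.0556). OA-NO2 livers held 659, 896 and 775 CPM, above vehicle and overlapping the lowest chow liver. Their log2 change from chow was -0.48 (interval -1.03 to 0.07, adjusted p = 0.322).

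Apoa4, an apolipoprotein encoded next to Apoa5, moved the other way on average. It was measured at 665, 324 and 431 CPM in chow and 670, 525 and 990 in vehicle, values that overlap. OA livers held 815, 553 and 284, and OA-NO2 livers 678, 363 and 862. The log2 change was 0.62 in vehicle (interval -0.24 to 1.48, adjusted p = 0.292), 0.22 in OA (adjusted p = 0.768) and 0.42 in OA-NO2 (adjusted p = 0.592). By library size alone vehicle livers were called higher (log2 change 1.16, adjusted p = 0.0395). Of 10 listed small intestine markers, 7 were in the table and summed to 274 to 370 CPM in chow, 250 to 296 in vehicle, 258 to 267 in OA and 190 to 346 in OA-NO2, nearly all of it Fabp2, which liver expresses too. Alpi, Muc2, Rbp2 and Krt20 were at 0 in chow and at most 0.233 CPM elsewhere. As counts of Apoa4 per count of Apoa5, chow livers gave 0.465, 0.379 and 0.447. Vehicle livers gave 1.08, 1.09 and 2.53, OA livers 1.86, 1.22 and 0.409, and OA-NO2 livers 1.03, 0.405 and 1.11. All vehicle livers lay above chow, while 1 liver of OA and 1 of OA-NO2 lay within the chow range.

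Apoa1, the main HDL protein, was measured at 12952, 7844 and 14332 CPM in chow. Vehicle livers held 6298, 8597 and 5811, and OA livers 5949, 5958 and 8757, so both groups overlapped the lowest chow liver. Log2 changes were -0.76 with vehicle (adjusted p = 0.0647) and -0.77 with OA (adjusted p = 0.0941). Without chow replicate 2, that lowest liver, vehicle was called lower (log2 change -0.98, adjusted p = 0.0372). OA-NO2 livers held 8348, 10736 and 8526 CPM, with a log2 change from chow of -0.35 (interval -0.93 to 0.23). Apoa2, the second HDL protein, was measured at 9947, 7643 and 8119 CPM in chow and 6350, 6563 and 4206 in vehicle, groups that did not overlap. Its log2 change was -0.59 in vehicle (adjusted p = 0.164) and -0.64 in OA (adjusted p = 0.172). OA livers held 4398, 5021 and 7057 CPM, while OA-NO2 livers held 5188, 10302 and 7789, overlapping every other group.

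Apoc3, which inhibits lipoprotein lipase, was measured at 1813, 1068 and 1495 CPM in chow, 1210, 1112 and 820.0 in vehicle, 653, 767 and 1130 in OA and 1038, 1763 and 1060 in OA-NO2. All 4 groups overlap. The log2 change from chow was -0.48 in vehicle (adjusted p = 0.251), -0.78 in OA (adjusted p = 0.102) and -0.18 in OA-NO2 (adjusted p = 0.763), and the first and last turned to 0.05 and 0.15 by library size alone. Apoc1, an inhibitor of remnant uptake, was measured at 4910, 3594 and 3879 CPM in chow and 3938, 4318 and 2921 in vehicle, values that overlap. Its log2 change was -0.15 in vehicle (interval -0.77 to 0.47, adjusted p = 0.75) and 0.38 by library size alone. OA livers held 2766, 3320 and 4691 CPM, and OA-NO2 livers 3007, 6051 and 3644. Replicate 2 of OA-NO2 had the highest Apoa1, Apoa2, Apoa5, Apoc1, Apoc3 and Apoe of the 9 NASH-diet livers and the lowest Apob. Its length gradient was -0.43, and the genes highest there have 537 to 2522 exon bases, against 13934 for Apob. Apoa4, with 1815 exon bases, was not highest there. The part of the gradient in this pattern was not tested.

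Apoe, the remnant ligand and the highest of these genes in CPM, was measured at 25517, 16583 and 21758 CPM in chow. Vehicle livers held 23331, 21220 and 18790, OA livers 17343, 19194 and 27267, and OA-NO2 livers 22981, 30851 and 22448. No pair of these groups separated. The log2 change from chow was -0.01 in vehicle (interval -0.56 to 0.53, adjusted p = 0.981), 0.00 in OA and 0.26 in OA-NO2, and by library size alone 0.52 in vehicle (adjusted p = 0.0476, called higher) and 0.41 in OA. Macrophages make Apoe as well as hepatocytes, and of 12 macrophage markers 10 rose with vehicle. Their part in the Apoe level was not tested.

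Apoc2 was barely counted: 3, 3 and 2 counts in chow, 5, 9 and 4 in vehicle, 3, 7 and 9 in OA and 38, 10 and 19 in OA-NO2. No library exceeded 1.96 CPM, so the gene failed the filter and was not tested. Of its 813 exon bases, 646 (79.5%) lie under the read-through gene Gm44805 on the same strand, which has no row in the table. The authors' treatment of reads in shared exons is not given in the sources used here, and how far the counts reflect the Apoc2 transcript was not tested. Smaller opposite-strand overlaps touch Apoa4, Apoa5 and Mttp. For Apoa4, 34.9% of exon bases lie under Gm47528, which had 174 counts over the 12 libraries against 129304 for Apoa4. Whether counting used strand is not given.

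Ratios between members do not depend on the scaling and were chosen after their values were seen, so they describe and test nothing. Apoa5 counts per Apoe count were 0.0561, 0.0516 and 0.0443 in chow. They were 0.0266, 0.0226 and 0.0209 in vehicle, 0.0253, 0.0237 and 0.0255 in OA, and 0.0287, 0.0290 and 0.0345 in OA-NO2. All 9 NASH-diet livers lay below all 3 chow livers, and all OA-NO2 livers above all vehicle and OA livers. Apoe took 35.1% ± 2.90 (SD, n = 3) of the counts of the 10 genes in chow, 45.6% ± 1.66 in vehicle, 43.5% ± 1.25 in OA and 44.6% ± 3.53 in OA-NO2. Apob counts per Apoe count were 0.412, 0.832 and 0.423 in chow and 0.278, 0.232 and 0.396 in vehicle, again without overlap. In OA the ratio was 0.474, 0.464 and 0.385, overlapping chow, and in OA-NO2 it was 0.315, 0.147 and 0.441. Of 6 ratios computed, 3 overlapped between chow and vehicle. Apoa5 per Apoa1 count was 0.0673 to 0.111 in chow and 0.0558 to 0.0986 in vehicle, Mttp per Apob count 0.0261 to 0.0444 and 0.0308 to 0.0437, and Apoc1 per Apoe count 0.178 to 0.217 and 0.155 to 0.204.

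**Figure D2:**
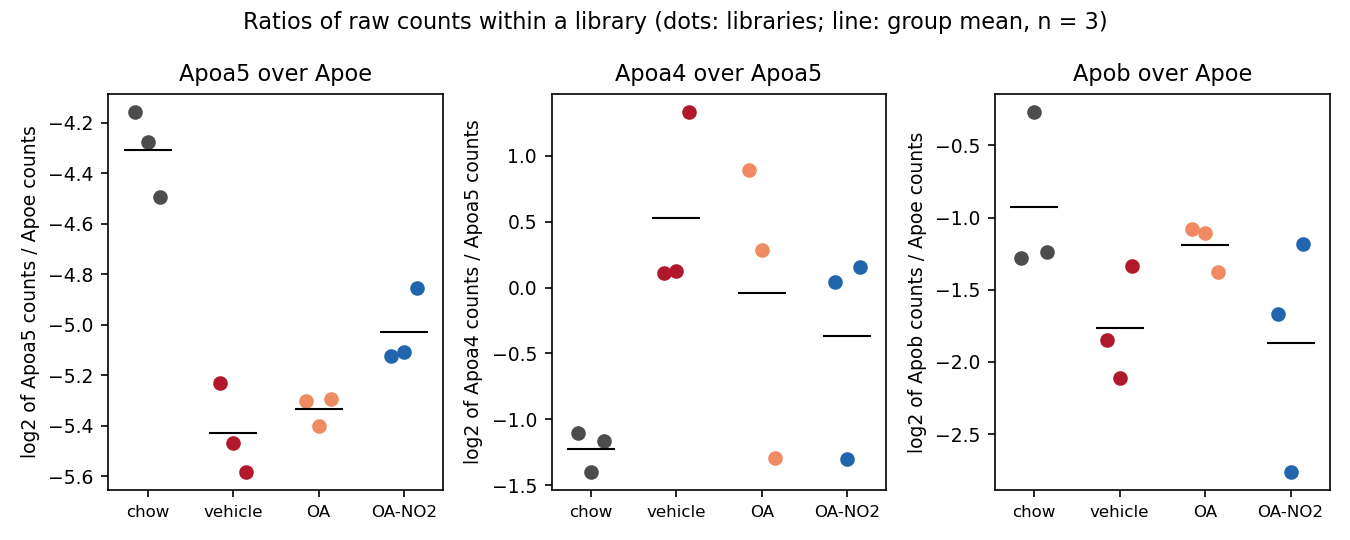
Log2 of the raw counts of one gene over those of another (vertical axes) in the 12 livers by group, with 1 point per mouse and a line at each group's mean. Before taking logs, Apoa5 per Apoe count lies at 0.0443 or more in chow and at 0.0345 or less in every NASH-diet liver.

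Comparisons with chow share the same 3 chow livers, so their values are set side by side and not counted as separate evidence. For OA against chow, 1 of 9 members (Apoa5) was called lower, beside 2.23% of all genes, and 3 did not overlap, beside 30.9%. DESeq2 called 4 (Apoa1, Apoa5, Apoc3 and Mttp), as did edgeR without OA replicate 3, and none was called by edgeR without chow replicate 1, OA replicate 1 or OA replicate 2. Over all genes those fits called 1882, 2232, 465, 347 and 379 in that order, against 1238 in the main fit. For OA-NO2 against chow no member was called by edgeR, beside 0.684% of all genes called in either direction, and 1 of 9 (Apob) had an unadjusted p under 0.05, beside 18.8%. DESeq2 called no member there and 653 of all genes. Only Mttp did not overlap chow there, 1 of 9 beside 21.5%. With the 3 NASH-diet groups averaged, Apoa5 (log2 change -0.88, SE 0.20, adjusted p = 0.0119) and Mttp (log2 change -0.52, SE 0.13, adjusted p = 0.0170) were called lower, 2 of 9 beside 6.98% of all genes. DESeq2 called 4, adding Apoa1 and Apob, and 2876 of all genes in place of 2335. Neither Apoa5 nor Mttp passed when chow replicate 1 was left out (adjusted p 0.0971 and 0.0670), and Mttp also failed when chow replicate 3 was (0.0648). Those 2 fits called 859 and 1558 of all genes. By library size alone the Mttp change over the 3 groups was -0.10 and not called, Apoa5 was called lower and Apoe higher. That scaling called 5328 of all genes, 5107 of them higher.

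**Figure D3:**
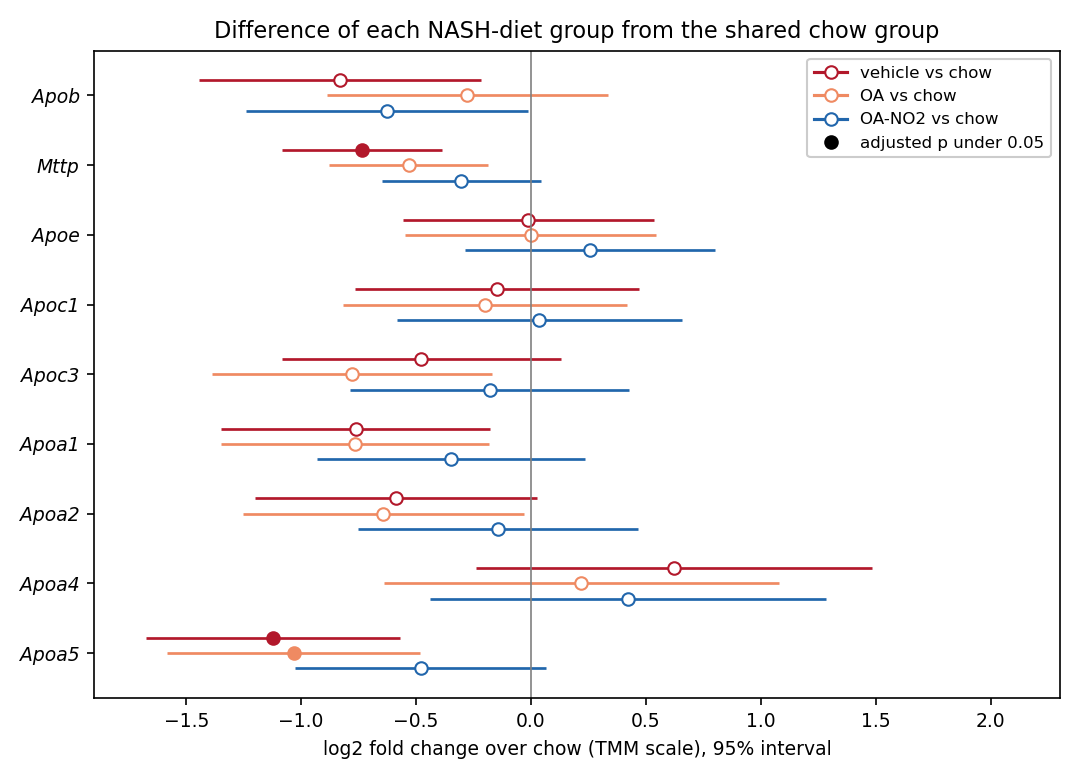
Log2 change of each of the 9 tested genes, as points with 95% intervals and filled where the adjusted p is under 0.05, for vehicle, OA and OA-NO2 each against the same chow livers. Apoa5 is lowest in vehicle at -1.12 and nearest to 0 in OA-NO2 at -0.48, and the directions of Apoc1, Apoc3 and Apoe in vehicle reverse when scaled by library size alone.

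Within the NASH diet, the 2 fatty acids were compared at the same dose with vehicle and with each other. No member passed the test in any of these 3 comparisons, by edgeR or by DESeq2. Over all genes edgeR called 0.0% for OA against vehicle and 0.0207% for OA-NO2 against vehicle. With OA against vehicle, 0 of 9 members had an unadjusted p under 0.05, beside 3.9% of all genes, and 1 of 9 (Apob) did not overlap, beside 13.1%. With OA-NO2 against vehicle, the counterparts were 2 of 9, beside 15.8%, and 2 of 9, beside 19.7%. The 2 were Apoa5, whose log2 difference was 0.64 (interval 0.10 to 1.19, adjusted p = 0.251), and Mttp, at 0.43 (interval 0.09 to 0.78, adjusted p = 0.230). In both genes all 3 OA-NO2 livers lay above all 3 vehicle livers. Without OA-NO2 replicate 2, the highest for Apoa5, its difference was 0.53 (adjusted p = 0.462). These shares are near the background, and DESeq2 called 300 genes in this comparison where edgeR called 3.

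OA-NO2 against OA compares the nitrated acid with its parent at 5 mg/kg/day. No member was called, beside 0.00691% of all genes called, and 1 of 9 (Apoa5) had an unadjusted p under 0.05, beside 12.0%. The log2 difference was 0.55 for Apoa5 (interval 0.01 to 1.10, adjusted p = 0.412) and 0.60 for Apoc3 (interval -0.01 to 1.21, adjusted p = 0.419). For Apob it was -0.35 (interval -0.96 to 0.26) and for Mttp 0.23 (interval -0.12 to 0.58). The groups overlapped in all 9, whereas they did not in 14.3% of all genes. The intervals leave room for differences of either sign in 8 of the 9 members, so no likeness of the compounds is shown.

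Around these genes, 118 others that serve lipoprotein assembly, remodelling, uptake and control were listed, and 117 passed the filter. The list was chosen with earlier results of these data known, so its counts beside those of all genes are descriptions and test nothing. With vehicle against chow, 10 rose and 23 fell, beside 11.1% and 8.16% of all genes. That split was 45 higher and 2 lower by library size alone, where 5758 of all genes were called, 5510 of them higher. The list's median log2 change was -0.18, against -0.01 over all genes. Of 33 genes of assembly and secretion, 1 rose and 7 fell. They include Mia2, a cargo receptor at endoplasmic reticulum exit sites that loads large lipoproteins (log2 change -0.89, adjusted p = 0.0138), and Sec23a, a coat subunit of the vesicles that leave there (-0.66, adjusted p = 0.0181). Of 17 other apolipoproteins and partner proteins, 2 rose and 7 fell. The 7 include 5 named as apolipoproteins (Apom, Apof, Apoh, Apol7a and Apon), the HDL-borne paraoxonase Pon1 and the receptor chaperone Lrpap1, and all but Apom were named after their values were seen. Apom, which carries sphingosine-1-phosphate on HDL, averaged 234 ± 77.5 CPM in chow and 76.9 ± 7.18 in vehicle (log2 change -1.60, adjusted p = 0.0025). Saa2, an acute-phase HDL protein, averaged 21.4 ± 13.4 and 153 ± 77.9 CPM (log2 change 2.80, adjusted p = 0.00599).

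Of 18 genes of remodelling, 2 rose and 3 fell. Lpl, the lipoprotein lipase that adult liver expresses little of, averaged 25.8 ± 10.04 CPM in chow and 239 ± 133 in vehicle (log2 change 3.20, adjusted p = 0.00252), and Abcg1, a sterol exporter, had a log2 change of 1.44 (adjusted p = 0.00327). Of 17 receptors, 4 rose and 2 fell. Vldlr, the VLDL receptor, had a log2 change of 2.07 (adjusted p = 0.00224) and Sorl1, a sorting receptor, of 2.05 (adjusted p = 0.00574). Of 32 regulators, 1 rose and 4 fell: Srebf1, which drives lipid synthesis, had a log2 change of 1.44 (adjusted p = 0.00537) and Ppargc1a, a coactivator, of -0.69 (adjusted p = 0.0157). Hnf4a, a hepatocyte regulator, at -0.62 (adjusted p = 0.0278) and Tm6sf2, which aids VLDL lipidation, at -0.95 (adjusted p = 0.0227) were picked after their values were seen. Without 1 of chow replicate 1, vehicle replicate 2 or vehicle replicate 3 the count of list genes called dropped from 33 to 17, 13 and 11. The split was then 7 higher and 10 lower, 6 and 7, and 6 and 5. Calls over all genes also dropped, from 2786 to 1392, 1521 and 1200, of which 862, 983 and 775 were higher. How far the drop is particular to the list was not tested.

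With OA against chow, 9 of the 117 rose and 7 fell, beside 6.33% and 2.23% of all genes. By library size alone 29 rose and 1 fell, where 3776 of all genes were called, 3649 of them higher. The most significant by role in the main fit were Apobec1 (log2 change 0.77), the editing enzyme of Apob, and Cav1 (-1.39), then Apom (-1.47), Saa2 (2.88), Lpl (2.83), Abcg1 (1.62), Vldlr (1.99), Sorl1 (2.04), Srebf1 (1.14) and Foxa3 (-0.61). Leaving out chow replicate 1 moved the count from 16 to 7, chow replicate 3 to 9, OA replicate 1 or 2 to 6 (5 higher, 1 lower) and OA replicate 3 to 30 (9 higher, 21 lower). Calls over all genes moved from 1238 to 465, 871, 347, 379 and 2232 in the same order. For OA-NO2 against chow edgeR called none, although DESeq2 called 12 and library size alone 12. Over all genes those fits called 99, 653 and 1127. With the 3 NASH-diet groups averaged, 10 rose and 18 fell, beside 9.16% and 6.98%. By library size alone 40 rose and 3 fell, where 5328 of all genes were called, 5107 of them higher. Leading genes of the main fit were Apom (-1.38), Saa2 (2.57), Vldlr (1.68), Abcg1 (1.31), Lpl (2.55), Ces3a (-0.67), Sec23a (-0.54), Srebf1 (1.07) and Nr1h4 (-0.54), the bile acid receptor. The main count of 28 dropped to 13 on leaving out chow replicate 1, to 16 for chow replicate 2, and to 18 for OA replicate 1 or 2, with more lower than higher in each. Calls over all genes dropped from 2335 to 859, 911, 1582 and 1543 in the same order. Between NASH-diet groups edgeR called none of the 117.

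**Figure D4:**
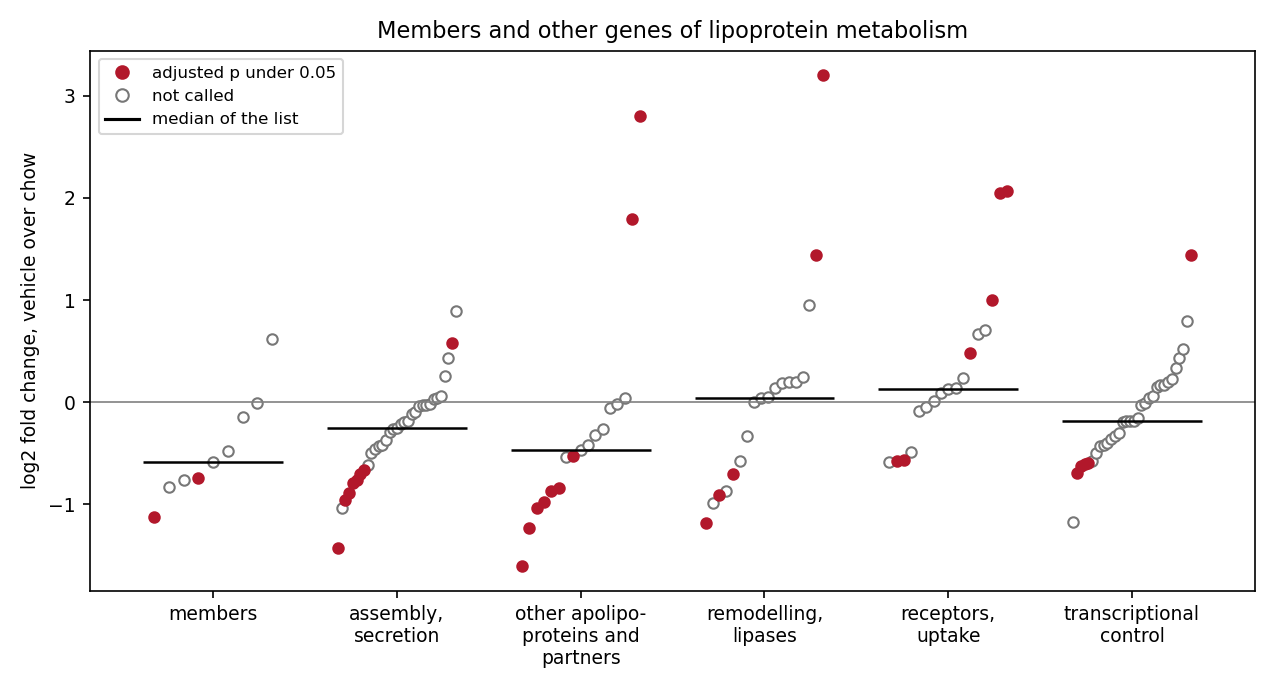
Log2 change in vehicle against chow (vertical axis) of the 9 tested members and the 117 other tested lipoprotein genes, grouped by role, with 1 point per gene, filled where the adjusted p is under 0.05, and a line at each median. Lpl at 3.20 and Saa2 at 2.80 lie at the top and Apom at -1.60 near the bottom. By library size alone 45 of the 117 are called higher and 2 lower in place of 10 and 23, beside 5758 of all genes called, 5510 of them higher.

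Across the 9 NASH-diet livers, the genes whose log2 CPM most resembled that of Apoa5, among 7413 genes averaging at least 10 CPM, were Asl, a urea cycle enzyme (Pearson r 0.984), and Shmt1, a one-carbon enzyme (0.982). For Mttp they were Sirt2, a deacetylase (0.964), and Ubp1 (0.951). These are descriptions over libraries that share their groups and depth, and the highest values among many genes.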

How the data were processed

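The gene count table that the authors deposited for mouse liver RNA was used, 1 column for each of 12 libraries. The values are raw counts per Ensembl gene. Per the submitters' processing notes, Trimmomatic 0.35, HISAT2 2.1.0, SAMtools 1.2, HTSeq and the build GRCm38 were used. The annotation release is not given in the sources used here, nor is the strand setting or the treatment of shared exons. Symbols were found for 24914 of 24983 identifiers. Coordinates and exon lengths came from GENCODE M21 and upstream sequences from RefSeq.

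Counts were fitted with edgeR 4.0.16 (R 4.3.3, limma 3.58.1): all 12 libraries, 1 coefficient per group, TMM scaling, filterByExpr (minimum count 10, minimum total 15), the quasi-likelihood test and Benjamini-Hochberg adjustment over the 14469 genes left. Genes were called at an adjusted p under 0.05. The SE is the log2 change divided by the square root of F. Intervals are 95%. The script was first tested on simulated counts.

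All 10 members were described in every comparison. Of the lipoprotein list, the 2 called genes with the lowest p per role were named, apart from 1 gene that is not reported here. For likeness, the 2 genes with the highest r were named for each member called against chow. The members and lists were chosen with earlier results of these data known. Alternatives were other size factors, library size alone, no filter, DESeq2 1.42.0, only the groups compared, and leaving out each liver.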

Additional observations from a re-analysis of the deposited data

How the results depend on the processing

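Over single genes and settings with all livers kept, 275 values kept their direction and call, 18 reversed, 10 gained and 3 lost the call. With a liver left out 380 stayed as reported, 37 reversed, 7 gained and 8 lost the call. Only values called in the main fit can lose the call. Apoa5 lost it in 2 of 6 such fits for vehicle, 3 of 6 for OA and 1 of 12 for the 3 groups against chow. Mttp lost it in 0 of 6 for vehicle and 2 of 12 for the 3 groups. Scaled by library size alone, log2 changes turned for vehicle against chow in Apoc1 (0.38), Apoc3 (0.055) and Apoe (0.52), for OA against chow in Apob (0.14), Apoc1 (0.21) and Apoe (0.41), for OA-NO2 against chow in Apoa2 (0.17), Apoc3 (0.15) and Mttp (0.026), and for the 3 NASH-diet groups in Apoc1 (0.32). They also turned for OA against vehicle in Apoa5 (-0.025) and Apoe (-0.10), and for OA-NO2 against vehicle in Apob (-0.0019) and Apoc1 (-0.030). Apoe also turned without a filter in vehicle (0.010) and OA (0.020) against chow, and with only the groups compared in OA against chow (0.0052) and against vehicle (-0.0019). By library size alone the median log2 change over all genes was itself 0.51 for vehicle, 0.42 for OA and 0.34 for OA-NO2 against chow. With TMM these medians were -0.01, -0.01 and 0.02. Library size alone shifts all genes of a comparison together. The cause of the Apoe turns in the other fits was not tested.

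With a liver left out, log2 changes crossed 0 over these ranges. For vehicle against chow they were Apoe -0.16 to 0.14. For OA against chow they were Apoa4 -0.17 to 0.55 and Apoe -0.26 to 0.15. For OA-NO2 against chow they were Apoa2 -0.40 to 0.078, Apoc1 -0.31 to 0.23 and Apoc3 -0.48 to 0.0037. For the 3 NASH-diet groups against chow they were Apoc1 -0.22 to 0.038 and Apoe -0.070 to 0.23. For OA against vehicle they were Apoa1 -0.24 to 0.19, Apoa2 -0.30 to 0.083, Apoa5 -0.18 to 0.28, Apoc1 -0.32 to 0.11 and Apoe -0.23 to 0.14. For OA-NO2 against vehicle they were Apoa4 -0.49 to 0.086, Apob -0.10 to 0.45 and Apoc1 -0.16 to 0.38. For OA-NO2 against OA they were Apoa4 -0.10 to 0.60 and Apoc1 -0.11 to 0.49.

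Members called numbered 4 by DESeq2 in vehicle, OA and the 3 groups against chow, and 0 for OA with only those groups. Over all genes those fits called 3237, 1882, 2876 and 776. Leaving out a liver gave 1 to 3 for vehicle, 0 to 4 for OA and 0 to 3 for the 3 groups. Of the lipoprotein list, library size alone called 30 for OA, 12 for OA-NO2 and 43 for the 3 groups against chow, and DESeq2 28 for OA and 12 for OA-NO2. Without a filter 3 were called for OA-NO2 against chow and 3 against vehicle, where DESeq2 called 4 and the model of only those groups 2. Over all genes those fits called 262, 151, 300 and 62. With a liver left out the list gave 11 to 31 for vehicle, 6 to 30 for OA, 0 to 2 for OA-NO2 and 13 to 37 for the 3 groups. Over all genes the same fits called 1200 to 2276, 347 to 2232, 15 to 71 and 859 to 3089. The members' counts came to 5.55% of the non-mitochondrial counts in chow and 5.87% in vehicle. Set against the counts without the 20 most abundant genes, they gave ratios of 6.76% in chow, 6.94% in vehicle, 6.93% in OA and 7.66% in OA-NO2. These are not shares, because Apoe, Apoa1, Apob and Apoa2 were among the 20 genes taken out of that total but stayed in the members' counts. Over all genes, library size alone called 5758 for vehicle, 3776 for OA, 1127 for OA-NO2 and 5328 for the 3 groups against chow, in place of 2786, 1238, 99 and 2335. DESeq2 called 1882 for OA and 653 for OA-NO2 against chow, 300 for OA-NO2 against vehicle and 51 against OA, in place of 1238, 99, 3 and 1. No paired analysis was possible because the labels give ear tags and no shared replicate numbers. With 3 mice a group, the interval beside each difference gives the precision reached.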
